A study of Mus musculus with 8 samples.

Results

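The mouse genes that present antigen on major histocompatibility complex (MHC) class I and class II molecules were compared between the corneal button and the limbal rim. A list of 10 gene symbols was matched exactly to the gene names of the deposited table, and all 10 were found among its 23420 rows that name a gene. H2-Aa, H2-Ab1 and H2-Eb1 encode class II chains. Cd74 encodes the invariant chain, Ciita the class II transactivator and H2-DMa a chain of the class II peptide editor. H2-K1 and H2-D1 encode the classical class I heavy chains, B2m their light chain and Tap1 a subunit of the peptide transporter.

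Both groups were untreated wild-type C57BL/6J mice, 8 weeks old. The limbal rim, the ring of tissue at the border of the cornea that holds the epithelial stem cells, was cut away from the corneal button inside it. The tissues of 16 eyes were pooled by region, RNA was extracted, and stranded libraries of total RNA were sequenced. The labels list 4 numbered samples of each tissue, but every mean in the table could be rebuilt from the whole reads of 2 libraries, 1 for each tissue. There was therefore no spread between replicates and no test across replicates, and every interval given below covers counting error only.

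Class I molecules are carried by nearly all nucleated cells and show peptides from the cytosol to CD8+ T cells. The peptides are cut by the proteasome, carried into the endoplasmic reticulum by Tap1 and Tap2, and loaded onto a heavy chain held by B2m. Class II molecules are carried mainly by dendritic cells, macrophages and B cells and show peptides from endosomes to CD4+ T cells. Cd74 guards the class II groove until the peptide editor H2-DM exchanges its fragment for a peptide, and Ciita switches the class II genes on. The cornea is known as an immune privileged tissue, and its antigen presenting cells are known to be denser toward the limbus than in the centre. C57BL/6 mice carry the H2b haplotype, which makes no I-E alpha chain, so the product of H2-Eb1 does not reach the cell surface in them.

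Of the 10 genes, 7 lie in the MHC on chromosome 17 of the mouse genome build GRCm38, in the GENCODE annotation. H2-Ab1 is at chr17:34257689-34269419 and H2-Aa at chr17:34282744-34287823, on opposite strands. H2-Eb1 follows at chr17:34305867-34316674. H2-DMa lies at chr17:34119541-34139101, Tap1 at chr17:34187553-34197225, H2-K1 at chr17:33996017-34000347 and H2-D1 at chr17:35262730-35267499. Outside the MHC, B2m is at chr2:122147686-122153083 and Ciita at chr16:10480059-10528418, and Cd74 also lies outside it. All 10 are annotated as protein coding. Exons of Tap1 overlap exons of Psmb9 on the opposite strand, exons of Ciita overlap exons of Dexi on the opposite strand, and a microRNA gene lies within an exon of Cd74. Whether reads were counted by strand is not given in the sources used here, so reads of such neighbours may be mixed.

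Class II and class I genes share promoter elements, of which the Y box, an inverted CCAAT box bound by NF-Y, lies nearest the start. RefSeq start sites of build GRCm38.p6 were available for 7 of the 10 genes. The 180 bases before the start are shown for 5 of them, since they include the pairs that the comparisons below turn on: H2-Aa and H2-Eb1 among class II, H2-K1 and H2-D1 among class I, and B2m. The stretches are chr17:34287824-34288003 (minus strand), chr17:34305687-34305866 (plus), chr17:34000334-34000513 (minus), chr17:35262914-35263093 (plus) and chr2:122147507-122147686 (plus), in the order printed. All are written 5′ to 3′ along the gene, with capitals for the motif letters described next.
H2-Aa: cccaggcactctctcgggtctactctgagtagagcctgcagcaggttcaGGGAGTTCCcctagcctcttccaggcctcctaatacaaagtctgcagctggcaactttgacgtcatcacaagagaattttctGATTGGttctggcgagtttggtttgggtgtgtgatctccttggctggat
H2-Eb1: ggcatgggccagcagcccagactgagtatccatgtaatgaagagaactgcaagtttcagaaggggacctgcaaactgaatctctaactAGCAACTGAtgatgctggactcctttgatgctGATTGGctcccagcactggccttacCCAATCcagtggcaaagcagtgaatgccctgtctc
H2-K1: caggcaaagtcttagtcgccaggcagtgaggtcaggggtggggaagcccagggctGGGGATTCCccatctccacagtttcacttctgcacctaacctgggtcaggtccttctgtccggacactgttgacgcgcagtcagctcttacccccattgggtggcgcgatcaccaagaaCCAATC
H2-D1: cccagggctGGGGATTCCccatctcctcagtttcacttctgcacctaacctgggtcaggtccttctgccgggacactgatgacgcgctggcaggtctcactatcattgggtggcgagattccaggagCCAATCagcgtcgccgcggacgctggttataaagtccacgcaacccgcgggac
B2m: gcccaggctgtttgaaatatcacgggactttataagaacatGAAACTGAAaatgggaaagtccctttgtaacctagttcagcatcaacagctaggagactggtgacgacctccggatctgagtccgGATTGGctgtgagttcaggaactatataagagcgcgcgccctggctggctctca
The letters GATTGG, searched on both strands from 250 bases before the start to 50 after it, were found for all 7 genes and in 16.1% of the 32851 RefSeq promoters of that length. Counted from the start, their first base was at -49 in H2-Aa and at -54 in B2m, while H2-D1 held the reverse complement from -53. H2-Eb1 held them on both strands. In H2-K1 the reverse complement began at -6, next to the start. In Tap1 and H2-DMa the letters lay farther out, from -222 and -199. The search required a G before ATTGG, so inverted CCAAT letters with another base there were not marked. The stretches of H2-K1 and H2-D1 both hold such letters, cattgg, so the positions given need not be those of the Y box. H2-DMa has another RefSeq start, whose promoter held none of the motifs searched. H2-K1 also has another RefSeq start, upstream of the one used, and counted from it the letters began 8 bases after the start. The kappa B letters GGGNNTTCC, found in 5.82% of all promoters, were present in H2-Aa, H2-K1 and H2-D1. The X box letters AGNNACNGA, in 17.7% of all promoters, occurred before the start of H2-Eb1 and at the start of B2m, and the interferon response letters GAAANNGAA, in 8.56%, occurred in B2m. The stretches of H2-K1 and H2-D1 both carried GGGGATTCC. No match overlapped that of another motif. These are matches of letters and were not tested as binding sites.

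Reads on named genes numbered 26104753 in the cornea library and 21181617 in the limbus library. Counts below are reads, and normalized reads are those reads divided by the library's size factor, 1.03 (cornea) or 0.967 (limbus). A log2 ratio is the limbus over the cornea on normalized reads, so that a positive value is higher in the limbus, with the exact 95% counting interval. The table does not name the upper tissue of its comparison, and the library with more Krt12 and Kera and fewer Krt15 and Krt19 reads was taken as the cornea. Krt14, the basal keratin, was not used for that step and had 9952 corneal and 53574 limbal reads. The limbus library also held other tissue than epithelium. The 6 skeletal muscle genes summed to 89 corneal and 10052 limbal reads, and the 7 blood endothelial genes to 236 and 3105.

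Across the 13862 genes above 3 reads in each library, called the compared genes here, the median log2 ratio was -0.05 and the 5th and 95th percentiles were -1.26 and 2.62. For all 10 presentation genes the limbus exceeded the cornea beyond counting error, against 33.2% of the compared genes, while 40.6% of the compared genes and none of the 10 were higher in the cornea. At least 2-fold higher in the limbus with an interval leaving out equality were 7 of the 10, against 14.7% of the compared genes. At least 2-fold higher in the cornea were 8.66% of the compared genes and again none of the 10. Over the 10 genes, the log2 ratio had a median of 1.99. With libraries scaled to total reads, each log2 ratio was 0.21 higher, which moved the compared genes higher in the limbus beyond counting error from 33.2% to 45.1%, and those higher in the cornea from 40.6% to 29.7%. Under it, all 10 genes were still higher in the limbus.

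**Figure D1:**
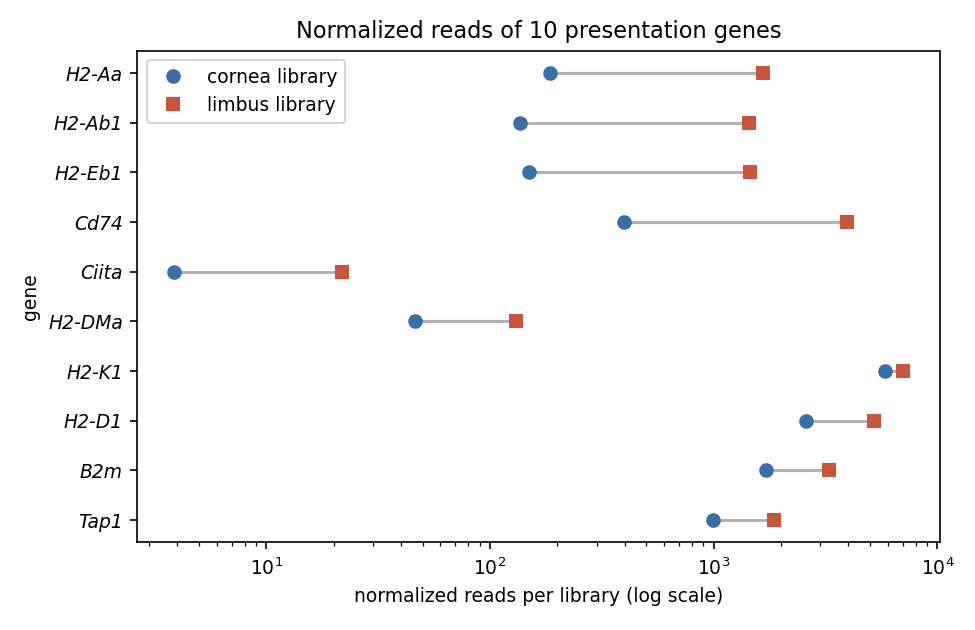
Normalized reads of the 10 presentation genes on a log axis, with a circle for the cornea library and a square for the limbus library, 1 library each. The squares lie to the right of the circles for all 10 genes, 10.5-fold apart for H2-Ab1 (136 and 1437 normalized reads) and close together for H2-K1 (5825 and 7035).

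The class II chains differed widely between the libraries. H2-Aa, the alpha chain of I-A, had 191 corneal and 1602 limbal reads, that is 185 and 1656 normalized reads. H2-Ab1, its beta chain, had 141 corneal and 1390 limbal reads. H2-Eb1, the beta chain of I-E, had 155 corneal and 1407 limbal reads. The limbus was high for each chain, and the gap was of nearly the same size in all 3. The log2 ratio was 3.16 (2.95 to 3.39) for H2-Aa, 3.40 (3.15 to 3.66) for H2-Ab1 and 3.28 (3.04 to 3.53) for H2-Eb1. These are ratios of 8.96-fold, 10.5-fold and 9.70-fold. Of the 13862 compared genes, 409 had a higher ratio than H2-Aa, and 310 had a higher ratio than H2-Ab1. Genes with 3 reads or fewer in a library were left out of this ranking. Some of them had higher ratios, such as Emcn with 2 corneal and 365 limbal reads.

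Cd74 had more reads than any class II chain in both libraries. It had 413 corneal and 3823 limbal reads, or 400 and 3952 normalized reads, a log2 ratio of 3.31 (3.16 to 3.46) and a ratio of 9.89-fold. Cd74 and the 3 chains differed between the libraries by nearly the same factor, and none of the 6 differences of log2 ratio among these 4 genes had an interval that left out 0. The widest interval, for H2-Ab1 against H2-Eb1, ran from -0.24 to 0.48. Within the cornea library there were 84.8 reads of Cd74 for every 100 reads of the 3 chains, and within the limbus library 86.9. These proportions do not depend on the scaling of the libraries, and their quotient was 1.02 (0.891 to 1.18). H2-Eb2 and the pseudogene H2-Ea-ps were listed at 0 in the table.

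Ciita, which drives the transcription of class II genes, was the least abundant of the 10. It had 4 corneal and 21 limbal reads, a log2 ratio of 2.49 with a wide interval of 0.92 to 4.49. The limbus was higher, but at this depth the ratio could lie anywhere between 1.89-fold and 22.5-fold. The differences between Ciita and each of H2-Aa, H2-Ab1, H2-Eb1 and Cd74 all had intervals that held 0, so a like ratio and a ratio lower by several fold could not be told apart. Per kilobase of exon, Ciita had 0.470 normalized reads in the cornea against 2.64 in the limbus, where Cd74 had 282 and 2791.

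H2-DMa, a chain of the peptide editor, differed less between the libraries than the class II chains it serves. It had 48 corneal and 127 limbal reads, a log2 ratio of 1.5 (1.01 to 2.01). Its ratio of 2.83-fold was higher in the limbus, and it lay below that of H2-Aa by 1.66 (1.10 to 2.21) on the log2 scale and below that of Cd74 by 1.81 (1.27 to 2.32). Its partner chain H2-DMb1 had 104 corneal and 191 limbal reads, with a log2 ratio of 0.97 (0.62 to 1.33). H2-DMb2, a near copy of that partner, had 1 and 2 reads, and reads of the copies may have been assigned to either gene. The chains of H2-DO, which restrains the editor, were detected in the limbus library alone. H2-Oa had 0 corneal and 6 limbal reads, and H2-Ob had 0 and 4. With a floor of 3 reads put in place of the corneal 0, the ratios would be 2.14-fold and 1.42-fold, which are not lower bounds. The lower end of the counting interval lay above equality for H2-Oa, at 0.33 on the log2 scale, and below it for H2-Ob, at -0.50.

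**Figure D2:**
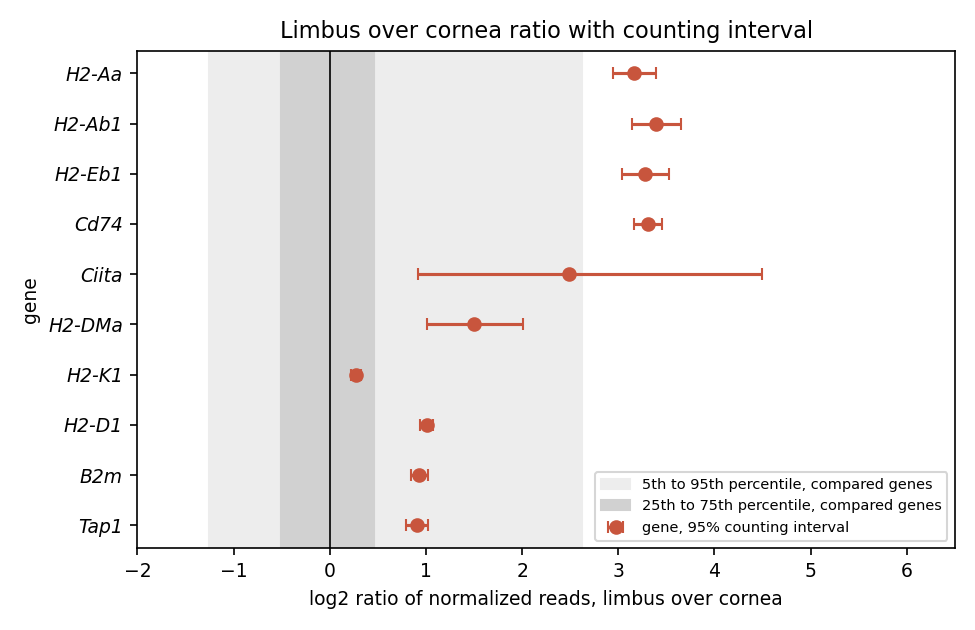
Log2 ratio of normalized reads, limbus over cornea, for the 10 presentation genes with exact 95% counting intervals as bars, over grey bands that mark the middle ranges of the 13862 compared genes. H2-Aa, H2-Ab1, H2-Eb1 and Cd74 lie between 3.16 and 3.40, to the right of the 95th percentile of 2.62, while H2-K1 at 0.27 lies inside the dark band.

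The class I genes were abundant in both libraries and differed far less. H2-K1 had 6022 corneal and 6805 limbal reads, a log2 ratio of 0.27 (0.22 to 0.32) or 1.21-fold. H2-D1, the other classical heavy chain, had 2664 corneal and 5021 limbal reads, a log2 ratio of 1.01 (0.94 to 1.08) or 2.01-fold, with an interval that reached below 2-fold. The heavy chains thus did not keep their proportion, with 44.2 reads of H2-D1 for every 100 of H2-K1 in the cornea against 73.8 in the limbus, a quotient of 1.67 (1.57 to 1.77) that is free of the scaling. H2-K1 and H2-D1 are close in sequence to each other and to other class I genes, so their reads may in part be shared between them. H2-L, a class I locus that C57BL/6 mice lack, had 0 corneal and 1 limbal reads.

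B2m, the light chain of every class I molecule, had 1770 corneal and 3160 limbal reads. Its log2 ratio was 0.93 (0.85 to 1.02), or 1.91-fold. Tap1, which moves peptides into the endoplasmic reticulum, had 1025 corneal and 1797 limbal reads, a log2 ratio of 0.91 (0.79 to 1.02) or 1.87-fold. B2m, Tap1 and H2-D1 shared nearly the same ratio, and the 3 differences among them had intervals that held 0, the widest being -0.11 to 0.17 for B2m over Tap1. H2-K1 stood apart from them, 0.66 (0.56 to 0.76) below B2m and 0.63 (0.51 to 0.76) below Tap1 on the log2 scale.

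Relative to class I, class II was higher in the limbus library. For every 100 reads of H2-K1 and H2-D1 there were 5.61 reads of the class II chains in the cornea against 37.2 in the limbus, a quotient of 6.63 (6.01 to 7.33). Each of H2-Aa, H2-Ab1, H2-Eb1 and Cd74 had a higher log2 ratio than each of H2-K1, H2-D1, B2m and Tap1, and all 16 intervals of these differences left out 0. The smallest of the 16 differences was 2.15 (1.93 to 2.39), for H2-Aa over H2-D1. Over all 45 pairs of the 10 genes, the intervals of 28 left out 0.

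Per kilobase of exon, the order of the levels changed between the tissues. In the cornea, the highest levels were those of H2-K1 with 3520 normalized reads per kilobase, B2m with 1991 and H2-D1 with 1226, followed by Tap1 with 336 and Cd74 with 282. In the limbus, Cd74 with 2791 normalized reads per kilobase stood above H2-D1 with 2469, behind H2-K1 with 4251 and B2m with 3798. H2-Aa with 1468, H2-Ab1 with 1186 and H2-Eb1 with 871 normalized reads per kilobase stood above Tap1 with 629 in the limbus, whereas in the cornea all 3 stood below it, with 164, 113 and 89.8. H2-DMa and Ciita were the lowest in both libraries. No spread over samples was available for this order. The 10 genes together took 0.0476% of the reads on named genes in the cornea against 0.119% in the limbus.

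**Figure D3:**
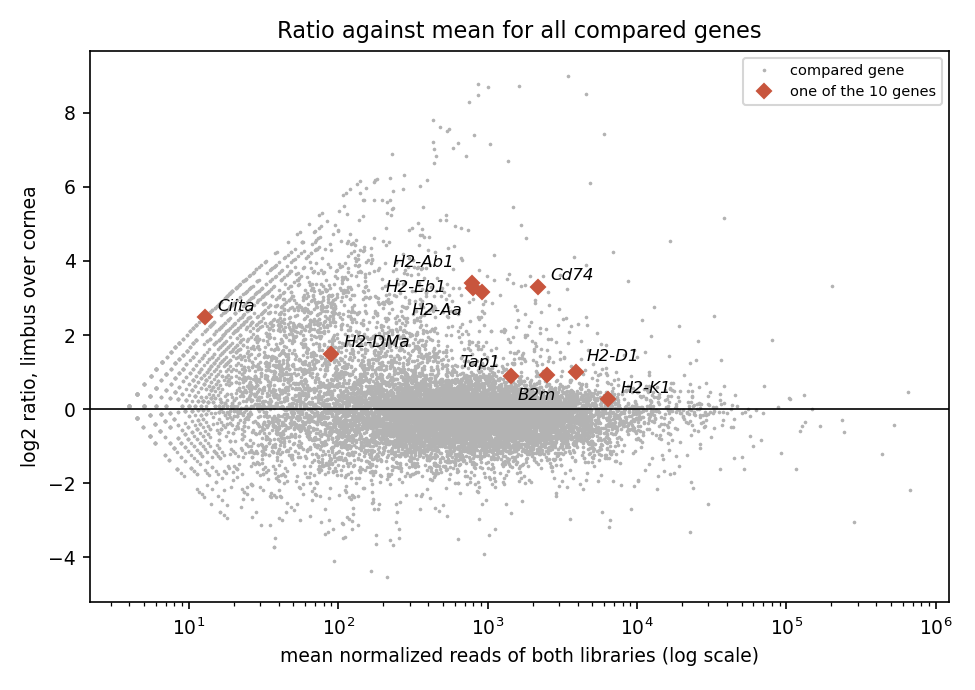
Log2 ratio of normalized reads, limbus over cornea, against the mean normalized reads of both libraries on a log axis, with grey points for the 13862 compared genes and diamonds for the 10 presentation genes. The class II chains and Cd74 sit well above the main cloud at log2 ratios of 3.16 to 3.40, and H2-K1 sits within it at 0.27.

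The other genes of the pathway were described by 8 lists, which add 70 genes, 69 of them with a row in the table. Of these, 8 were listed at 0, 13 had 3 reads or fewer in a library, and 48 were compared. Among the 48, 26 were higher in the limbus past the counting interval, 17 were higher in the cornea and 5 were neither, a split that scaling to total reads turned into 31, 11 and 6. For all compared genes, the size factors gave shares of 33.2% (limbus) and 40.6% (cornea). The median log2 ratio of the 48 was 0.17, and none of them reached a log2 ratio of 3. Of the genes too low to be compared, Cd1d1, which presents lipids, had 2 corneal and 22 limbal reads, a log2 ratio of 3.56 (1.53 to 6.69), and H2-M2 had 1 and 9, at 3.27 (0.41 to 8.72). The wide gap of the class II chains and Cd74 was thus not shared by the compared genes around them.

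The proteases that prepare class II peptides went in both directions. Ctsh, an aminopeptidase of the lysosome, had 4026 corneal and 8152 limbal reads, a log2 ratio of 1.11 (1.06 to 1.17). Ctsl, a cathepsin that trims the invariant chain in thymic epithelium, had 31750 corneal and 19697 limbal reads, a log2 ratio of -0.59 (-0.62 to -0.57). Ctss, the cathepsin that does so in antigen presenting cells, had 411 and 560 reads, with a log2 ratio of 0.54 (0.36 to 0.73). The limbus was thus the higher library for Ctss and the cornea for Ctsl. The asparaginyl endopeptidase Lgmn was higher in the limbus at 0.34 (0.26 to 0.43), and the thiol reductase Ifi30 was higher in the cornea at -0.22 (-0.39 to -0.04). Over the list of peptide loading and processing, H2-DMa included, 5 of 7 compared genes were higher in the limbus and the other 2 in the cornea. The shares over all compared genes were 33.2% and 40.6%. The median log2 ratio of the 7 was 0.54.

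Ciita works on a platform of RFX, NF-Y and CREB proteins, and these did not share its direction as a group. Of the 7 genes for them, 2 were higher in the limbus, 4 were higher in the cornea and 1 differed by less than counting error. Over all compared genes, these shares were 33.2% (limbus) and 40.6% (cornea). Rfx5 had 700 corneal and 524 limbal reads, a log2 ratio of -0.32 (-0.49 to -0.16), and Creb1 had 1393 and 727, at -0.84 (-0.97 to -0.71). Nfya lay at -0.14 (-0.27 to -0.01) and Nfyb at -0.61 (-0.76 to -0.46), both higher in the cornea. Rfxap was the highest of the 7 at 0.43 (0.17 to 0.68). With scaling to total reads the value of Nfya became 0.07, the other direction, and 2 of the 7 remained higher in the cornea.

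**Figure D4:**
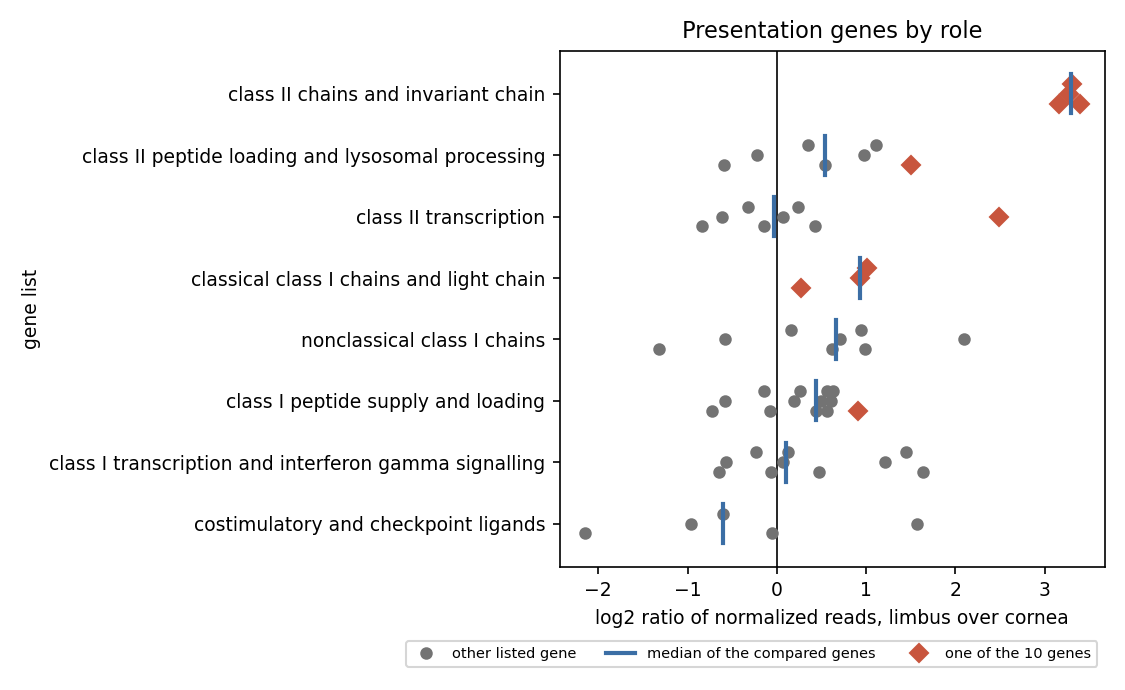
Log2 ratio of normalized reads, limbus over cornea, for the compared genes of 8 lists of presentation genes, with diamonds for the 10 genes, grey points for other listed genes and a bar for the median of each list. The class II chains and invariant chain stand to the right of 3, while the median of the class II transcription list is -0.03.

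The genes that supply and load class I peptides leaned to the limbus. Of 13 compared genes, Tap1 included, 9 were higher in the limbus and the other 4 were higher in the cornea. The shares over all compared genes were 33.2% and 40.6%. The median log2 ratio of the 13 was 0.44. Tap2, the partner of Tap1, had 1109 corneal and 1534 limbal reads, a log2 ratio of 0.56 (0.45 to 0.68), and Tapbp, which ties the transporter to class I, had 3484 and 4815, at 0.56 (0.50 to 0.63). The immunoproteasome subunits were all higher in the limbus, Psmb8 at 0.61 (0.53 to 0.70), Psmb9 at 0.44 (0.27 to 0.62) and Psmb10 at 0.63 (0.47 to 0.79). Tap1 had the highest ratio of the list. The chaperone Calr lay at 0.25 (0.22 to 0.29). Canx, a chaperone of new heavy chains, had 6429 corneal and 3638 limbal reads and was the lowest of the list at -0.73 (-0.78 to -0.67). The disulfide isomerase Pdia3 at -0.14 (-0.18 to -0.11) and the proteasome activator subunit Psme2 at -0.08 (-0.13 to -0.02) were higher in the cornea, a direction that turned with scaling to total reads, to 0.06 and 0.13.

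Nonclassical class I chains, which present restricted ligands, were mostly few or absent in reads. Of 21 genes, 5 were listed at 0, 8 had 3 reads or fewer in a library and 8 were compared. Of these 8, 5 were higher in the limbus and 1 was higher in the cornea, beside 33.2% and 40.6% of all compared genes. H2-T23, which encodes Qa-1, had 1702 corneal and 3059 limbal reads, a log2 ratio of 0.94 (0.86 to 1.03), close to that of B2m at 0.93. H2-Q4 had 458 and 659 reads, at 0.62 (0.45 to 0.80), H2-K2 lay at 0.71 (0.32 to 1.10) and H2-M3, which presents formylated peptides, at 0.99 (0.45 to 1.56). The extremes of the compared genes had few reads, H2-T24 with 6 corneal and 24 limbal reads at 2.10 (0.77 to 3.68) and H2-T22 with 16 and 6 at -1.32 (-2.96 to 0.11). H2-Q6, H2-Q7, H2-Q8 and H2-Q9 were listed at 0, and as close copies of each other they may have lost or shared reads in counting. Mr1, which shows microbial vitamin metabolites, had 2854 corneal and 1785 limbal reads and was the gene higher in the cornea, at -0.58 (-0.67 to -0.50).

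The regulators of class I and of the interferon gamma response differed among themselves. Nlrc5, the class I counterpart of Ciita, had 11 corneal and 32 limbal reads, a log2 ratio of 1.64 (0.61 to 2.77). Irf1, an interferon response factor, was nearly level with 7525 corneal and 7386 limbal reads, at 0.07 (0.02 to 0.12). The receptor chains Ifngr1 at 0.47 (0.39 to 0.55) and Ifngr2 at 0.13 (0.05 to 0.21) were higher in the limbus, whereas the kinases Jak1 at -0.56 (-0.62 to -0.51) and Jak2 at -0.65 (-0.76 to -0.54) were higher in the cornea. Ifng was listed at 0. Of the 10 compared genes of this list, 6 were higher in the limbus, 3 were higher in the cornea and 1 was neither, with a median of 0.10. Over all compared genes, these shares were 33.2% (limbus) and 40.6% (cornea).

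The ligands that costimulate or restrain T cells had a median log2 ratio of -0.61 over 5 compared genes. Cd274, which encodes the inhibitory ligand PD-L1, had 3239 corneal and 1992 limbal reads, a log2 ratio of -0.61 (-0.69 to -0.52). Cd40 at -0.96 (-1.50 to -0.45) and Cd80, with 38 corneal and 8 limbal reads, at -2.15 (-3.46 to -1.03) were also higher in the cornea. Cd86 went the other way with 9 and 25 reads, at 1.57 (0.42 to 2.85), and Icosl lay at -0.06 (-0.19 to 0.07). Of the 5, 3 were higher in the cornea and 1 was higher in the limbus, beside 40.6% and 33.2% of all compared genes. Which cells gave these reads was not tested.

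Most markers of leukocytes were also higher in the limbus, by factors that differed widely among them. Of 5 pan-leukocyte genes, 4 were higher in the limbus, beside 33.2% of all compared genes. The summed normalized reads of the 5 were 136 in the cornea against 915 in the limbus. Laptm5 had 50 corneal and 368 limbal reads, a log2 ratio of 2.98 (2.55 to 3.43), and Coro1a had 21 and 235, at 3.58 (2.93 to 4.30). Ptprc, which encodes CD45, differed less, with 30 and 72 reads and a log2 ratio of 1.36 (0.73 to 2.02). All 12 macrophage and monocyte genes were higher in the limbus, with a median log2 ratio of 2.42, a range of 0.78 to 3.18 and summed normalized reads of 1075 in the cornea against 4543 in the limbus. Lyz2 had 241 corneal and 1045 limbal reads, at 2.21 (2.01 to 2.42), and Cd68 had 402 and 644, at 0.78 (0.59 to 0.96). In bulk tissue, fewer cells of a type and less RNA per cell cannot be told apart, and the part of these cells in the class II difference was not tested.

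Markers that define dendritic cells were sparse. Of 9 dendritic and Langerhans cell genes, 8 had 3 reads or fewer in a library, and the list summed to 25 corneal and 167 limbal reads. Itgax, which encodes CD11c, had 19 corneal and 73 limbal reads, a log2 ratio of 2.04 (1.29 to 2.85). Cd209a had 1 and 36 reads, at 5.27 (2.70 to 10.6). Cd207, the langerin of Langerhans cells, had 2 and 10 reads, and Flt3 and Batf3 had 0 reads in the cornea with 9 and 13 in the limbus. The limbus was the higher library for each of these 5. Of the defining markers of B cells, which also carry class II, Cd79a, Ms4a1 and Pax5 had 0 corneal and 1 limbal reads each. Cd79b had 22 and 36 reads, at 0.81 (0.00 to 1.64). The T cell list summed to 3 corneal and 26 limbal reads, of which Cd4 gave 1 and 18 and Cd3e 1 and 4.

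**Figure D5:**
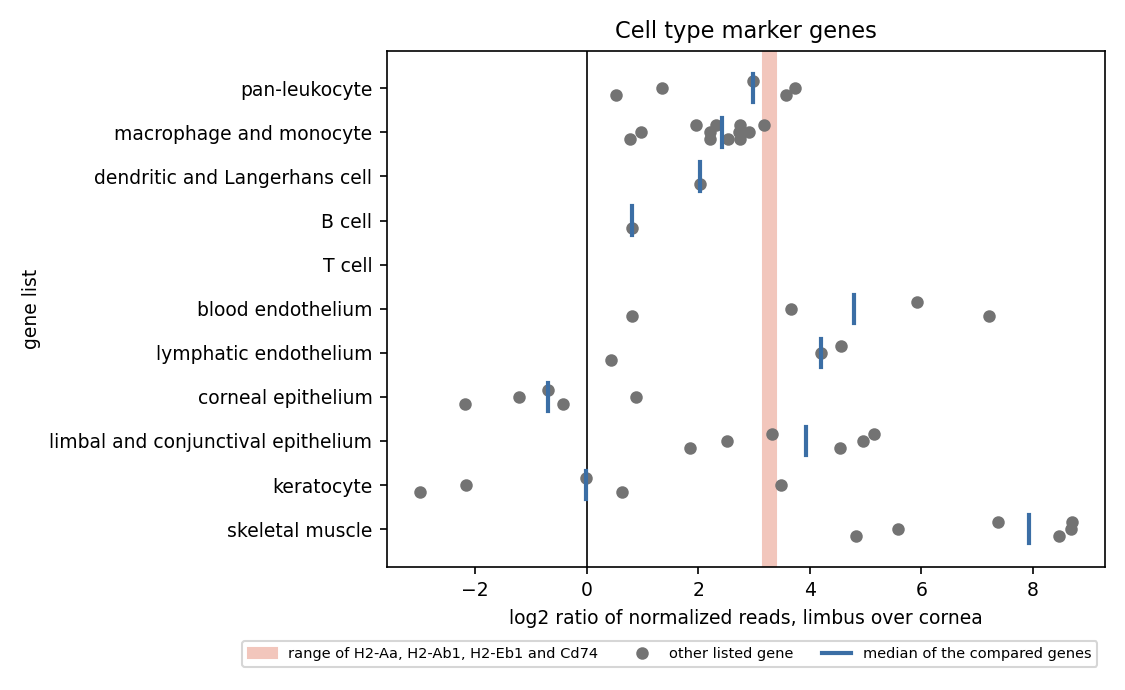
Log2 ratio of normalized reads, limbus over cornea, for the compared genes of 11 lists of cell type markers, with a bar for the median of each list and a shaded band for the range of H2-Aa, H2-Ab1, H2-Eb1 and Cd74. The macrophage and monocyte genes reach from 0.78 to 3.18, up to the band that begins at 3.16, and the skeletal muscle genes lie beyond it.

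The class II genes were set against the 18 compared leukocyte, macrophage and dendritic cell markers gene by gene, which needs no scaling. Itgax was the only dendritic cell marker among the 18, since the others had 3 reads or fewer in a library. Cd209a, at a log2 ratio of 5.27 (2.70 to 10.6), was therefore not set against them. Cd74 had a higher log2 ratio than 11 of the 18, with an interval that left out 0, and no interval placed a marker above Cd74, although Coro1a at 3.58 and Cd52 at 3.74 had higher values. H2-Ab1 was likewise higher than 11, H2-Eb1 than 9 and H2-Aa than 7, and no interval placed a marker above any of them. The 7 markers whose interval with Cd74 held 0 were Laptm5, Coro1a, Cd52, Cx3cr1, C1qa, Fcgr1 and Ccr2. Per 100 reads of Ptprc there were 1623 reads of the class II chains in the cornea against 6110 in the limbus, a quotient of 3.76 (2.35 to 5.90). This quotient depends on the marker. The log2 ratio of Ptprc was 1.36, against 0.52 for Cd53, 2.98 for Laptm5, 3.58 for Coro1a and 3.74 for Cd52. Against Laptm5, Coro1a and Cd52, the difference of each of the 3 chains had an interval that held 0. Against Ptprc and Cd53, each of the 3 chains was higher with an interval that left out 0. H2-DMa lay below 10 of the 18 markers and above 2. The class I genes lay below most of them, H2-K1 below 17 and H2-D1, B2m and Tap1 below 14 each.

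Tissues other than leukocytes differed as well. The counts below stand beside 33.2% (higher in the limbus) and 40.6% (higher in the cornea) of all compared genes. Of the compared corneal epithelium genes, 4 of 5 were higher in the cornea, with a median log2 ratio of -0.69, and all 6 limbal and conjunctival epithelium genes were higher in the limbus, with a median of 3.93. Krt12, Krt15 and Krt19 are among them, set the direction and so check nothing. All 4 compared blood endothelium genes, all 3 compared lymphatic endothelium genes and all 6 skeletal muscle genes were higher in the limbus, with medians of 4.79, 4.21 and 7.92. Pecam1, the endothelial adhesion molecule, had 6 corneal and 831 limbal reads. Of 5 keratocyte genes, 2 were higher in the limbus and 2 were higher in the cornea, with a median of -0.01, and 1 of the latter is Kera, which also set the direction. The part of these tissues in the ratios of the 10 genes was not tested.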

How the data were processed

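Pooled corneal buttons and limbal rims were sequenced as stranded total RNA. The authors trimmed adaptors, used CLC Genomics Workbench to map reads to GRCm38, also called mm10, and named the trimmed mean of M-values for normalization. They deposited 1 table with, per gene, a mean normalized signal and their own comparison (log2 fold change, its standard error, p-value and adjusted p-value). The deposited log2 values served only to find reads, and none of the authors' comparison is printed.

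Of 40904 rows, 23420 name a gene, and 5978 of these are listed at 0. The other 17442 means were split into whole reads per library, with 109 corneal reads equal in weight to 102 limbal reads. Where several pairs were possible, as for 9 of the 10 genes, the pair closest to the deposited log2 value and standard error was taken. It missed by at most 1.0e-05 for the 10 genes, and the next pair by at least 34.8 times as much. On simulated data all 17073 genes were found exactly, but this does not show that the deposited values follow the model that was simulated. In the deposited table, 150 genes were placed with a dispersion taken from like genes, none of them among the 10. For 25 genes with several possible pairs, the error of the runner-up was under 10-fold that of the chosen pair. The reads are derived values, not a count table, and no columns held values per sample, so the test planned on counts per sample was replaced by counting intervals.

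Ratios carry 95% intervals from the limbal share of reads (Clopper-Pearson, exact), and differences between genes exact conditional intervals. The 10 genes, the lists and the rule for named genes were chosen with earlier results of these data known. The rule took from each presentation list the 4 most abundant other genes and, among genes with at least 10 reads in both libraries, the extremes, and from each marker list the 2 most abundant genes. Markers of tissues other than leukocytes are mostly given as counts instead, and other named genes were chosen after their values were seen. Adgre1 was matched by an older symbol, and H2-Ea, Ighm, Trac and Krt3 had no matching row. The values of 2 listed genes are not reported here. Scaling, pseudocount, interval, filter and fold were varied. Python 3.11.15 with scipy was used.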

Additional observations from a re-analysis of the deposited data

How the results depend on the processing

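All 10 genes kept a ratio above equality beyond counting error, toward the limbus, with total-read scaling, the trimmed mean of M-values, the Wilson interval and a mean of at least 10 normalized reads, and 9 with a mean of at least 50, which removes Ciita. Of 30 recomputed ratios of the 10 genes none turned, and 5 left their interval, all with scaling to total reads. The median log2 ratio of the 10 genes, 1.99, became 2.20 after total-read scaling, 1.85 after adding a pseudocount of 1 normalized read and 1.5 over the 9 genes other than Ciita. The number at least 2-fold higher in the limbus, 7, ranged from 6 with a mean of at least 50 to 9 with total-read scaling or a 1.5-fold threshold. The compared genes at least 2-fold higher in the cornea fell from 8.66% to 5.37% with scaling to total reads. No paired analysis was possible because the table holds no values for the numbered samples, and leaving out each replicate was not run for the same reason. Depth limited Ciita, H2-Oa, H2-Ob and the dendritic cell markers.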
